A study of Rattus norvegicus with 15 samples.

Results

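The mineralocorticoid receptor (MR) and glucocorticoid receptor (GR) axis was followed through 9 genes in rat liver: the receptors Nr3c2 (MR) and Nr3c1 (GR), the enzymes Hsd11b1 and Hsd11b2, which convert glucocorticoid between its inactive and active form, and the target genes Sgk1, Tsc22d3, Fkbp5, Zbtb16 and Scnn1a. The genes were taken by symbol from the deposited table of 32623 genes, of which 14417 had enough reads to be tested. All 9 genes passed that filter on low counts, Nr3c2 through 4 livers with at least 10 reads, of which 2 were controls and 2 had received eplerenone.

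Both receptors are ligand-activated transcription factors that bind the same kind of DNA element, and both bind corticosterone, the main glucocorticoid of the rat. Hsd11b2 inactivates corticosterone and so keeps the MR of aldosterone target tissues free for aldosterone, whereas Hsd11b1, abundant in hepatocytes, regenerates the active steroid. In liver the GR drives gluconeogenic and amino acid degrading genes, and eplerenone is a steroidal antagonist of the MR.

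Liver RNA came from male Wistar rats with an initial weight of 75 to 100 g, which were untreated (control, n = 4), inhaled CCl4 for 12 weeks with phenobarbital at 0.35 g/L in the drinking water (cirrhosis, n = 5), or had the same CCl4 and phenobarbital plus eplerenone at 100 mg/kg in hazelnut spread from week 8 to week 12 (cirrhosis & eplerenone, n = 5). The livers of CCl4-treated rats were taken 7 to 10 days after the last CCl4. Control replicate 1 was not analysed here, and by the study's methods 1 control was left out because a principal component analysis set it apart, so the spread among controls is that of a group selected on expression. Phenobarbital was given to both CCl4 groups and not to the control, so its effect and that of CCl4 cannot be told apart, and the rats sequenced were a subgroup that the authors picked by how well cirrhosis or the eplerenone treatment had worked. Each library is a different rat.

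Libraries held 16157491 to 21574767 counted reads, and levels are given as FPM, fragments per 1000000 of the TMM-scaled library, where 3 reads correspond to 0.121 to 0.191 FPM. On the first principal component, which carried 66.6% of the variance of the 500 most variable genes, the controls lay at -50.6 to -44.3, and cirrhosis replicates 1 to 4 at 38.0 to 47.7. Cirrhosis replicate 5 lay at -13.0, apart from its group, and cirrhosis & eplerenone replicate 3 lay at 42.6 while the other 4 rats of its group lay at -26.8 to 18.5. Calls of the 9 genes that change without these 2 libraries, which were picked by the same expression data, are given beside the result. Each of the 2 libraries lay within the range of the other CCl4 group on this component. Leaving them out thus widens the difference between the CCl4 groups by the way they were picked. Calls gained without them are no independent support. Hepatocyte markers (Alb, Ttr, Apoa1, Cps1, Hnf4a, Serpina1) summed to 146007 to 161377 FPM in control, 81879 to 149699 FPM in cirrhosis and 80178 to 140009 FPM in cirrhosis & eplerenone. Most of this sum was Alb, with 115540 to 130558 FPM in control. By log2FC 5 of the 6 were lower in cirrhosis than in control, and 1, Apoa1, was higher (mean 3242 against 1936 FPM). All 5 cholangiocyte markers rose in cirrhosis, with summed levels of 12.8 to 19.4 FPM in control, 42.4 to 100.0 FPM in cirrhosis and 34.0 to 88.0 FPM in cirrhosis & eplerenone. In such whole tissue, fewer cells of a type and less RNA per cell cannot be told apart. The animal labels start with 13 in control 2, with 16 in controls 3 to 5 and with 15 or 20 in the CCl4 groups. The labels do not say what this number stands for, and against the control it cannot be told apart from CCl4.

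Differences are edgeR log2FC with the standard error (SE), and a gene was called DEG when the false discovery rate (FDR, Benjamini-Hochberg over all 14417 genes) was below 0.05 in both edgeR's quasi-likelihood test and DESeq2. Between control and cirrhosis 1 of the 9 genes was DEG, Zbtb16, which fell. Over all genes the share of DEG was 20.1%, and 6.67% for falls. Between control and cirrhosis & eplerenone 1 gene was DEG, Hsd11b2, which was lower (background 5.2%, and 0.874% for lower genes). Between cirrhosis and cirrhosis & eplerenone 0 of the 9 genes were DEG (background 0.0139%). There, DESeq2 called 1, Zbtb16 (background 0.513%), and edgeR's unadjusted p was below 0.05 for Zbtb16 and Fkbp5 (background 14.4%). Without the 2 libraries that stood apart, 4, 0 and 3 of the 9 genes were DEG in the 3 comparisons, beside 34.1%, 4.86% and 9.15% of all genes. Taken alone, DESeq2 called Zbtb16 and Hsd11b2 in the first comparison (background 27.8%) and Hsd11b2 and Fkbp5 in the second (background 10.6%). Cirrhosis rats were separated from all control rats for 1 of the 9 genes, Zbtb16 (background 20.2%), and for 0 of the 9 in the other comparisons (background 10.9% against control and 0.964% between the CCl4 groups). The first and second comparison share the control samples, and each pair of comparisons shares a group.

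**Figure D1:**
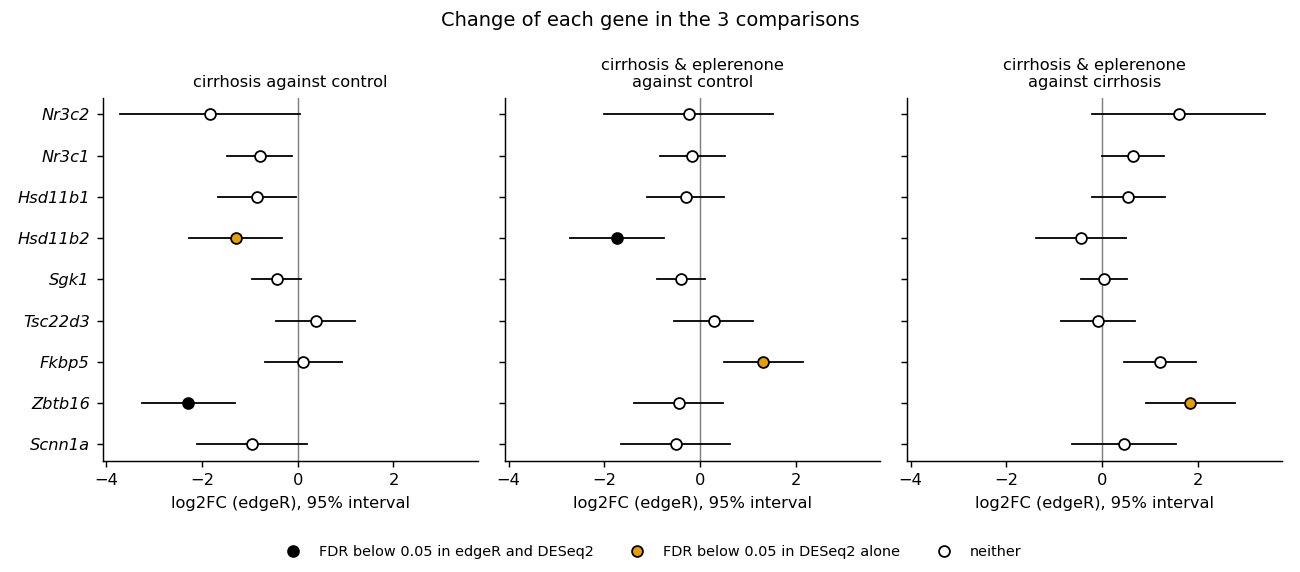
Change of the 9 genes in each of the 3 comparisons. The x axis is edgeR's log2FC with its 95% interval, and the fill shows whether the FDR was below 0.05 in edgeR and DESeq2 (black), in DESeq2 alone (orange) or in neither (white). Zbtb16 in cirrhosis against control (-2.28) and Hsd11b2 in cirrhosis & eplerenone against control (-1.73) are the black points.

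Nr3c2 (ENSRNOG00000034007, chromosome 19), the MR itself and the target of eplerenone, was close to the limit of detection in every group. Controls 2 to 5 had 0.18, 0.98, 0.37 and 0.83 FPM, from 3, 17, 6 and 13 reads. In cirrhosis replicates 1 to 5 the values were 0, 0.33, 0.11, 0 and 0.36 FPM, from 0, 8, 2, 0 and 6 reads. Cirrhosis & eplerenone replicates 1 to 5 had 0.31, 1.13, 0.36, 0.62 and 0.11 FPM, from 6, 18, 9, 11 and 2 reads. The groups overlapped, and 1 control, 3 cirrhosis and 1 cirrhosis & eplerenone library held 3 reads or fewer. Summed over a group, 39 reads in control gave 0.591 FPM (95% Poisson interval 0.420 to 0.808), 16 reads in cirrhosis gave 0.164 FPM (0.0939 to 0.267) and 46 reads in cirrhosis & eplerenone gave 0.478 FPM (0.350 to 0.637). These intervals cover counting error only.

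The log2FC of Nr3c2 was -1.84 (SE 0.89) in cirrhosis against control, with an FDR of 0.146 in edgeR's quasi-likelihood test, and 1.60 (SE 0.85, FDR 0.378) in cirrhosis & eplerenone against cirrhosis. Cirrhosis & eplerenone differed from control by -0.24 (SE 0.83, FDR 0.915), and no difference passed the test. Nr3c2 passed the filter on low counts only through control and eplerenone rats. That selection favours a low cirrhosis group in both comparisons with cirrhosis. Without the 2 libraries that stood apart the log2FC was -2.25 (edgeR FDR 0.0861) in cirrhosis against control and 2.11 (edgeR FDR 0.157) between the CCl4 groups. With so few reads the 95% interval of the log2FC was wide, from -3.72 to 0.05 in cirrhosis against control. Kidney tubule markers, from the tissue best known for the MR, were near 0: Umod had no read in the 14 libraries, and the summed level of the 4 markers was at most 1.54 FPM.

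Nr3c1 (ENSRNOG00000014096, chromosome 18), the GR, was well covered in every liver. Its levels were 78.5, 82.9, 72.2 and 85.0 FPM in controls 2 to 5 (mean 79.7 ± 5.66, SD, n = 4). In cirrhosis they were 32.8, 49.3, 29.1, 44.1 and 73.6 FPM (mean 45.8 ± 17.6, n = 5), and in cirrhosis & eplerenone 79.1, 130, 38.0, 60.9 and 48.7 FPM (mean 71.4 ± 36.3, n = 5). Cirrhosis replicates 1 to 4 lay below every control, and replicate 5 fell within the control range. The eplerenone group overlapped both other groups. The order of the means was control, cirrhosis & eplerenone, cirrhosis, and no neighbours in that order differed beyond their spread by the test. Against control the log2FC was -0.80 in cirrhosis (SE 0.32, FDR 0.0835 in edgeR and 0.0631 in DESeq2) and -0.16 in cirrhosis & eplerenone (SE 0.32, FDR 0.845). Cirrhosis & eplerenone lay 0.64 above cirrhosis (SE 0.30, FDR 0.349).

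The GR calls changed with the libraries included. Without the 2 that stood apart Nr3c1 was DEG in cirrhosis against control (log2FC -1.02, edgeR FDR 0.0108) and in cirrhosis & eplerenone against cirrhosis (1.02, edgeR FDR 0.0353). The way these 2 libraries were picked favours such differences. Leaving out cirrhosis replicate 5 alone gave -1.04 (edgeR FDR 0.0215) against control, and leaving out cirrhosis & eplerenone replicate 2 alone gave -0.80 (edgeR FDR 0.0400). With all rats kept, a fit of only control and cirrhosis also called Nr3c1 (-0.79, FDR 0.0405 in edgeR and 0.0159 in DESeq2). Cirrhosis replicate 5 had the highest level of its group for 3 of 6 hepatocyte markers (Alb, Hnf4a and Ttr, not Apoa1, Cps1 or Serpina1), and the lowest for 4 of 5 cholangiocyte markers, which summed to 42.4 FPM against 86.5 to 100.0 FPM in the other 4 rats. Cirrhosis & eplerenone replicate 3 had the lowest level of its group for 4 of 6 hepatocyte markers and the highest for 3 of 5 cholangiocyte markers, which summed to 88.0 FPM against 34.0 to 70.5 FPM. Their part in the result was not tested.

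**Figure D2:**
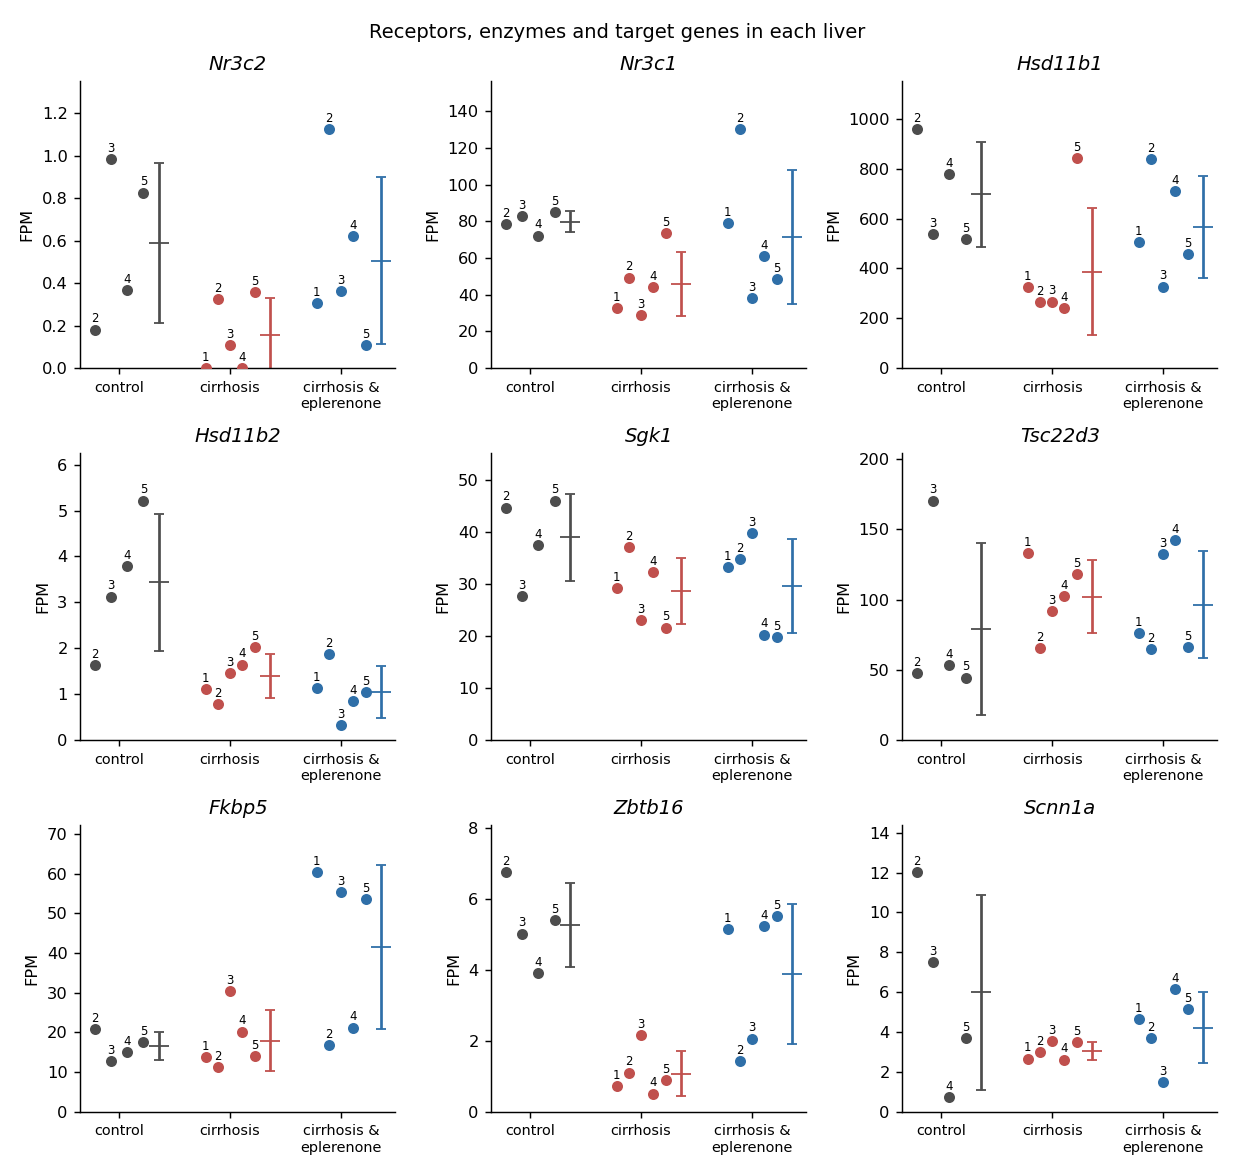
Levels of the 9 genes in each liver. The y axes are FPM on linear scales that start at 0, points are rats with their replicate number, and the bar beside each group is the mean ± SD (n = 4, 5 and 5), cut at 0 for Nr3c2. Zbtb16 in cirrhosis (0.51 to 2.16 FPM) lies below all controls (3.91 to 6.76 FPM), and Hsd11b1 in cirrhosis replicate 5 (842 FPM) lies far above its group.

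Within the CCl4 groups, the GR was also compared by the number at the start of the animal label. Both libraries that stood apart, cirrhosis replicate 5 and cirrhosis & eplerenone replicate 3, were labelled 20. Among rats labelled 15, cirrhosis & eplerenone (79.1 and 130 FPM) lay above cirrhosis (32.8, 49.3 and 29.1 FPM) by 1.501 on the log2 scale (SE 0.33, edgeR FDR 0.0761). Among rats labelled 20, cirrhosis & eplerenone (38.0, 60.9 and 48.7 FPM) overlapped cirrhosis (44.1 and 73.6 FPM), and the log2FC was -0.24 (SE 0.31). The difference of these differences was -1.70 (SE 0.47, n = 10), with an unadjusted p of 0.0043 and an FDR of 0.364 in edgeR's quasi-likelihood test. It did not pass the correction over all genes. Apart from the 2 libraries that stood apart, rats labelled 20 had 60.9 and 48.7 FPM in cirrhosis & eplerenone and 44.1 FPM in cirrhosis. The label number and these 2 libraries cannot be told apart here.

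Hsd11b1 (ENSRNOG00000005861, chromosome 13), the reductase that reactivates glucocorticoid in hepatocytes, likewise had 4 low rats and 1 high rat in cirrhosis. Controls 2 to 5 had 960, 539, 777 and 517 FPM (mean 698 ± 211, SD, n = 4). Cirrhosis replicates 1 to 4 had 325, 264, 267 and 239 FPM, below every control, and replicate 5 had 842 FPM (mean of the group 388 ± 256, n = 5). Cirrhosis & eplerenone replicates 1 to 5 had 505, 840, 327, 710 and 459 FPM (mean 568 ± 205, n = 5). Each of them lay above cirrhosis replicates 1 to 4 and below cirrhosis replicate 5, a split of cirrhosis made after the levels were seen. At both edges the gap was within counting error. Cirrhosis & eplerenone replicate 3 had a 95% Poisson interval of 320 to 335 FPM, against 317 to 333 FPM in cirrhosis replicate 1. Cirrhosis & eplerenone replicate 2 had 826 to 854 FPM, against 829 to 856 FPM in cirrhosis replicate 5. The log2FC was -0.85 in cirrhosis against control (SE 0.38, edgeR FDR 0.118) and 0.55 in cirrhosis & eplerenone against cirrhosis (SE 0.36, edgeR FDR 0.451). Cirrhosis & eplerenone differed from control by -0.30 (SE 0.38, edgeR FDR 0.740).

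A single rat decided the call of Hsd11b1 against control. Without cirrhosis replicate 5 the log2FC against control was -1.35 (edgeR FDR 0.0042, DEG). Without both libraries that stood apart it was -1.33 (edgeR FDR 0.0016), and cirrhosis & eplerenone exceeded cirrhosis by 1.18 (edgeR FDR 0.0200). The way both libraries were picked favours such differences. By label number, the difference between the CCl4 groups was 1.24 (SE 0.31) among rats labelled 15 and -0.09 (SE 0.57) among rats labelled 20. Both libraries that stood apart were labelled 20. The other rats labelled 20 had 710 and 459 FPM in cirrhosis & eplerenone and 239 FPM in cirrhosis.

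**Figure D3:**
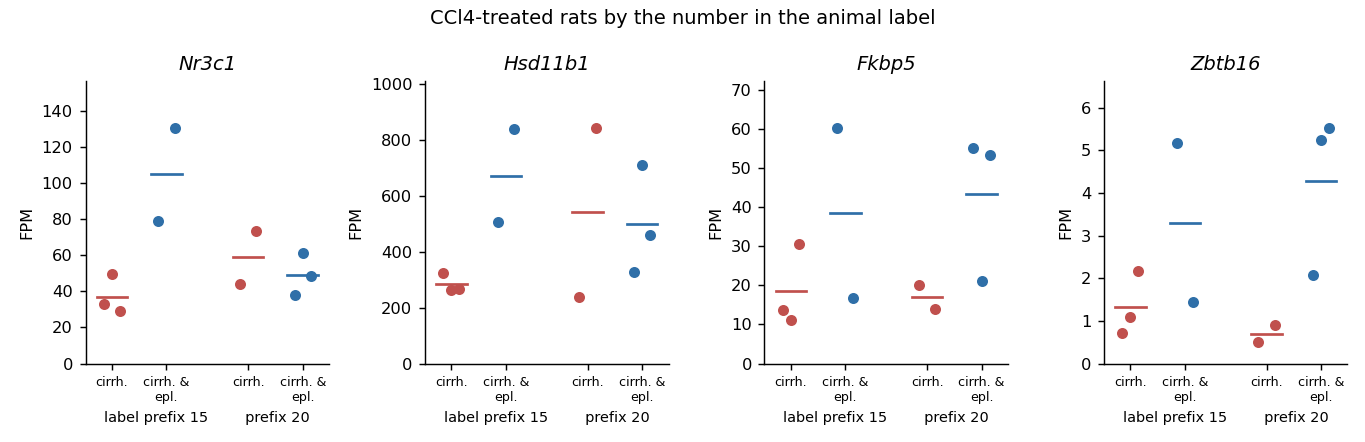
Nr3c1, Hsd11b1, Fkbp5 and Zbtb16 in the CCl4-treated rats by the number at the start of the animal label (15 or 20). The y axes are FPM, points are rats (3 and 2 labelled 15, 2 and 3 labelled 20 in cirrhosis and cirrhosis & eplerenone) and lines are means. The eplerenone rats labelled 15 lie above the cirrhosis rats labelled 15 for Nr3c1 and Hsd11b1, whereas the groups overlap among rats labelled 20. Both libraries that stood apart are labelled 20.

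Hsd11b2 (ENSRNOG00000017084, chromosome 19), the dehydrogenase that inactivates glucocorticoid, had at most 5.22 FPM in any liver and was lower in cirrhosis & eplerenone than in control. Its levels were 1.63, 3.12, 3.79 and 5.22 FPM in controls 2 to 5 (mean 3.44 ± 1.49, SD, n = 4). Cirrhosis replicates 1 to 5 had 1.11, 0.78, 1.46, 1.64 and 2.02 FPM (mean 1.40 ± 0.481, n = 5), and cirrhosis & eplerenone replicates 1 to 5 had 1.12, 1.88, 0.32, 0.85 and 1.04 FPM (mean 1.04 ± 0.561, n = 5). Control 2 was the lowest control and lay within the range of both CCl4 groups, whereas controls 3 to 5 lay above all CCl4-treated rats. Control 2 was also the only control analysed whose label starts with 13. Hsd11b2 was 3.31-fold lower in cirrhosis & eplerenone than in control (log2FC -1.73, SE 0.46, FDR 0.0422 in edgeR and 0.0049 in DESeq2). In cirrhosis it was -1.30 against control (SE 0.46), where DESeq2 (FDR 0.0275) and not edgeR (FDR 0.0559) passed the threshold. The CCl4 groups differed from each other by -0.43 (SE 0.44, FDR 0.623), with a 95% interval from -1.38 to 0.51.

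The call of Hsd11b2 in cirrhosis & eplerenone was near its threshold. It was kept in 5 of 14 fits that left out 1 rat each, those without control 2, cirrhosis 2, 4 or 5, or cirrhosis & eplerenone 2. In the other 9 fits, without control 3, 4 or 5, cirrhosis 1 or 3, or cirrhosis & eplerenone 1, 3, 4 or 5, the edgeR FDR was 0.0506 to 0.155. Without both libraries that stood apart it was 0.0582 (log2FC -1.49), while cirrhosis against control was then DEG (-1.44, edgeR FDR 0.0173). That comparison was also DEG in 4 fits that left out 1 rat: without control 2 (-1.53, edgeR FDR 0.0427), cirrhosis 5 (-1.46, 0.0340), cirrhosis & eplerenone 2 (-1.30, 0.0439) or cirrhosis & eplerenone 3 (-1.28, 0.0322).

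The balance of the pair can be read within each liver as the log2 ratio of Hsd11b1 to Hsd11b2, with no correction for gene length. In controls 2 to 5 it was 9.20, 7.43, 7.68 and 6.63, and in cirrhosis replicates 1 to 5 it was 8.19, 8.41, 7.52, 7.19 and 8.70. Cirrhosis & eplerenone replicates 1 to 5 had 8.81, 8.81, 9.98, 9.71 and 8.79. The 5 eplerenone rats lay above all 5 cirrhosis rats, with 8.79 as the lowest of the one group and 8.70 as the highest of the other, and control 2 lay within the eplerenone range. The ratio was formed after the levels were known and is given without a test. The rats at this gap had few Hsd11b2 reads. Cirrhosis replicate 5 had 34 reads (95% Poisson interval 1.40 to 2.83 FPM), and cirrhosis & eplerenone replicate 5 had 19 (0.625 to 1.62 FPM). Counting error alone is thus wider than the gap, and the separation is not secure. How often other gene pairs separate the groups was not counted.

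Among the target genes, Sgk1 (ENSRNOG00000011815, chromosome 1), the kinase that carries the early response to aldosterone and is also induced by glucocorticoid, passed the test in none of the 3 comparisons. Its levels were 44.6, 27.7, 37.4 and 46.0 FPM in controls 2 to 5. In cirrhosis they were 29.1, 37.0, 23.0, 32.3 and 21.6 FPM, and in cirrhosis & eplerenone 33.3, 34.8, 39.7, 20.3 and 19.8 FPM. All 3 groups overlapped. The log2FC against control was -0.44 in cirrhosis (SE 0.24, edgeR FDR 0.186) and -0.40 in cirrhosis & eplerenone (SE 0.24, edgeR FDR 0.383). Between the CCl4 groups it was 0.05, with a 95% interval from -0.43 to 0.53.

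Scnn1a (ENSRNOG00000019368, chromosome 4), the alpha subunit of the epithelial sodium channel and a classic MR target of epithelia, was low and most variable in the control. Controls 2 to 5 had 12.0, 7.52, 0.73 and 3.69 FPM. Cirrhosis replicates 1 to 5 had 2.66, 2.98, 3.56, 2.62 and 3.51 FPM, and cirrhosis & eplerenone replicates 1 to 5 had 4.65, 3.69, 1.498, 6.15 and 5.14 FPM. The cirrhosis rats lay inside the control range, and 4 of 5 eplerenone rats lay above all cirrhosis rats. The log2FC was -0.97 in cirrhosis against control (SE 0.54, edgeR FDR 0.202), -0.51 in cirrhosis & eplerenone against control (SE 0.54, edgeR FDR 0.672) and 0.46 between the CCl4 groups (SE 0.51, edgeR FDR 0.655). Without control replicate 4, the lowest of all 14 rats, cirrhosis against control was -1.34 and DEG (edgeR FDR 0.0479).

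Tsc22d3 (GILZ, ENSRNOG00000056135, chromosome X), a leucine zipper protein induced by GR and MR, held 1 control far from the rest. Controls 2 to 5 had 47.3, 170, 53.4 and 44.5 FPM. The 5 cirrhosis rats had 133, 65.4, 91.8, 102 and 118 FPM, and cirrhosis & eplerenone replicates 1 to 5 had 76.05, 64.6, 133, 142 and 65.8 FPM. Control 3 was the highest of all 14 rats, and the other 3 controls were the lowest. The log2FC was 0.37 in cirrhosis (SE 0.39, edgeR FDR 0.499) and 0.29 in cirrhosis & eplerenone (SE 0.39, edgeR FDR 0.759). Without control 3 it was 1.07 and DEG in cirrhosis (edgeR FDR 0.0395), and 0.99 and not called in cirrhosis & eplerenone. The CCl4 groups differed from each other by -0.08, with a 95% interval from -0.87 to 0.70.

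Fkbp5 (ENSRNOG00000022523, chromosome 20), an Hsp90 co-chaperone that lowers the hormone affinity of GR and MR and is induced by GR in a feedback loop, fell into high and low rats under eplerenone. Controls 2 to 5 had 20.7, 12.7, 15.02 and 17.6 FPM (mean 16.5 ± 3.45, SD, n = 4). In cirrhosis replicates 1 to 5 Fkbp5 had 13.8, 11.2, 30.5, 20.2 and 13.99 FPM (mean 17.9 ± 7.75, n = 5). Cirrhosis & eplerenone replicates 1, 3 and 5 had 60.3, 55.3 and 53.5 FPM, above every other liver, while replicates 2 and 4 had 16.8 and 21.2 FPM, within the range of cirrhosis. The mean of the eplerenone group was 41.4 ± 20.7 FPM (n = 5). The log2FC of cirrhosis & eplerenone was 1.33 against control (SE 0.38), with an FDR of 0.0583 in edgeR and 0.0105 in DESeq2. Against cirrhosis it was 1.21 (SE 0.36), with an FDR of 0.312 in edgeR and 0.0863 in DESeq2. Cirrhosis and control differed by 0.12 (SE 0.38, edgeR FDR 0.836).

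Against control, Fkbp5 was DEG in 3 of 14 fits that left out 1 rat: 1.33 without cirrhosis replicate 3 (edgeR FDR 0.0443), 1.53 without cirrhosis & eplerenone replicate 2 (0.0146) and 1.49 without replicate 4 (0.0342). Without both libraries that stood apart the log2FC was 1.204 (edgeR FDR 0.116). The difference between the CCl4 groups had the same direction among rats labelled 15 (1.07, SE 0.59) and 20 (1.36, SE 0.45).

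The promoter of Fkbp5 is shown because this gene is a widely used reporter of GR activity and had its highest values in eplerenone rats. The 250 bases before the transcription start, from RefSeq on the GRCr8 build (chr20:6543556-6543805, minus strand; the counts were made on rn6), read as follows.
Fkbp5: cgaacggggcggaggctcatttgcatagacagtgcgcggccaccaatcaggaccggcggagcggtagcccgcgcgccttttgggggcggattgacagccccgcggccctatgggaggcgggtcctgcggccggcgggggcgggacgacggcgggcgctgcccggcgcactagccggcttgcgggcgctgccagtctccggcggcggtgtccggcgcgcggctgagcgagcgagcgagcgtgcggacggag
The window held 41 CpG dinucleotides and 76% G and C. The receptor hexamer AGAACA was searched for on both strands, alone and followed after a gap of 3 bases by its reverse complement TGTTCT. The search also took in the first bases after the start, which are not printed. Neither was found in this window, so that no letters are in capitals, and neither was found in the windows of Nr3c1, Sgk1 and Tsc22d3 (9 windows for the 4 genes). Of all 33469 RefSeq windows searched in the same way, 20.7% held the hexamer and 5 held the full element. No match says only that these letters are not in this stretch, and the known receptor sites of Fkbp5 lie largely in introns, outside it.

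Zbtb16 (PLZF, ENSRNOG00000029980, chromosome 8), a zinc finger transcription repressor strongly induced by glucocorticoid, had the largest log2FC of the 9 genes between control and cirrhosis. Controls 2 to 5 had 6.76, 5.03, 3.91 and 5.41 FPM (mean 5.27 ± 1.17, SD, n = 4). Cirrhosis rats 1 to 5 had 0.72, 1.10, 2.16, 0.51 and 0.89 FPM, all below the lowest control. Cirrhosis & eplerenone replicates 1, 4 and 5 had 5.16, 5.25 and 5.52 FPM, inside the control range, and replicates 2 and 3 had 1.44 and 2.06 FPM, between the 2 highest cirrhosis rats. The order of the means was control, cirrhosis & eplerenone, cirrhosis. Zbtb16 fell 4.87-fold in cirrhosis (log2FC -2.28, SE 0.46, FDR 0.0046 in edgeR and 2.9e-05 in DESeq2) and was DEG in 14 of 14 fits that left out 1 rat (-2.69 to -2.09).

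Cirrhosis & eplerenone lay 3.59-fold above cirrhosis for Zbtb16 (log2FC 1.84, SE 0.44), with an FDR of 0.312 in edgeR and 0.0189 in DESeq2, so that it was not DEG. Without the 2 libraries that stood apart, a choice that favours a difference, it was DEG (1.93, edgeR FDR 0.0306). The direction was the same among rats labelled 15 (1.32, SE 0.70) and 20 (2.62, SE 0.67). Against control, cirrhosis & eplerenone differed by -0.44 (SE 0.44, FDR 0.646), with a 95% interval from -1.37 to 0.49.

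Fkbp5 and Zbtb16 did not single out the same eplerenone rats: replicates 1 and 5 were high in both, replicate 3 in Fkbp5 alone and replicate 4 in Zbtb16 alone, and replicate 2 in neither. Likeness of pattern over the 14 livers was measured as the root mean square difference of mean-centred log2 FPM among 11427 genes with at least 1 FPM on average. The nearest genes to Nr3c1 were Cul4a (0.168), Erc1 (0.174) and Pcnx1 (0.176), against an own spread of 0.587. Hsd11b1 was nearest to Ppp2r5e (0.264), Aldh8a1 (0.275) and Rarres1 (0.284), with an own spread of 0.667. Fkbp5 was nearest to Alpl (0.472), Tal1 (0.527) and Stat3 (0.537), with an own spread of 0.789, and Zbtb16 to Oit3 (0.657), Gemin6 (0.761) and Itga1 (0.762), with an own spread of 1.15. For Nr3c2 (own spread 1.07) the nearest were Lman1, Top3a and Ddx58 at 0.437 to 0.451, for Hsd11b2 (0.901) Ugt2b15, Dexi and Rinl at 0.459 to 0.509, for Sgk1 (0.394) Glb1l, Snx2 and Map2k3 at 0.238 to 0.245, for Tsc22d3 (0.608) Camkk1, Med22 and Proser2 at 0.442 to 0.452, and for Scnn1a (0.904) Cabyr, Ly75 and Hhex at 0.512 to 0.576.

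Around the 9 genes, 6 wider lists of the axis were counted, of which 76 genes were tested. Of these 26 were DEG in cirrhosis against control, 8 in cirrhosis & eplerenone against control and 0 between the CCl4 groups, beside 20.1%, 5.2% and 0.0139% of all genes. Without the 2 libraries that stood apart the counts were 37, 10 and 17 of 73 tested, beside 34.1%, 4.86% and 9.15%. Over all genes 13.4% rose and 6.67% fell in cirrhosis against control, and 4.33% and 0.874% in cirrhosis & eplerenone against control. Of 24 glucocorticoid-induced genes of liver, 6 rose and 4 fell in cirrhosis against control (median log2FC 0.20, all genes -0.01). The metallothioneins Mt2A (log2FC 3.10) and Mt1 (2.58) and the stress gene Gadd45b (2.22) rose, and Pdk4 (-2.92), which limits glucose oxidation, fell. Pck1, the gluconeogenic carboxykinase, and Errfi1 had -0.73 and -0.60 and did not pass the test. In cirrhosis & eplerenone against control 1 rose (Gadd45b, 2.94) and 1 fell (the repressor Bcl6, -1.81), and the median was 0.70.

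Between the CCl4 groups 0 of these 24 genes were DEG by edgeR and DESeq2, 5 had an unadjusted edgeR p below 0.05 (14.4% of all genes) and DESeq2 alone called 2 (0.513% of all genes). By sign, 17 of 24 were higher in cirrhosis & eplerenone (median 0.35, all genes 0.01). The 2 genes DESeq2 called were Klf9, a circadian and glucocorticoid responsive factor (6.86 ± 2.44 FPM in cirrhosis, 25.8 ± 18.3 FPM in cirrhosis & eplerenone, log2FC 1.91), and Lpin1, a phosphatidate phosphatase (11.5 ± 7.74 and 56.5 ± 22.7 FPM, log2FC 2.29), both named after their values were seen. Their FDR was 0.312 in edgeR's quasi-likelihood test. The list was written with earlier results of these data known. The paper had already named Lpin1 and Pdk4, both on the list, as eplerenone-sensitive from these data. The count of 2 is therefore not independent of these data.

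**Figure D4:**
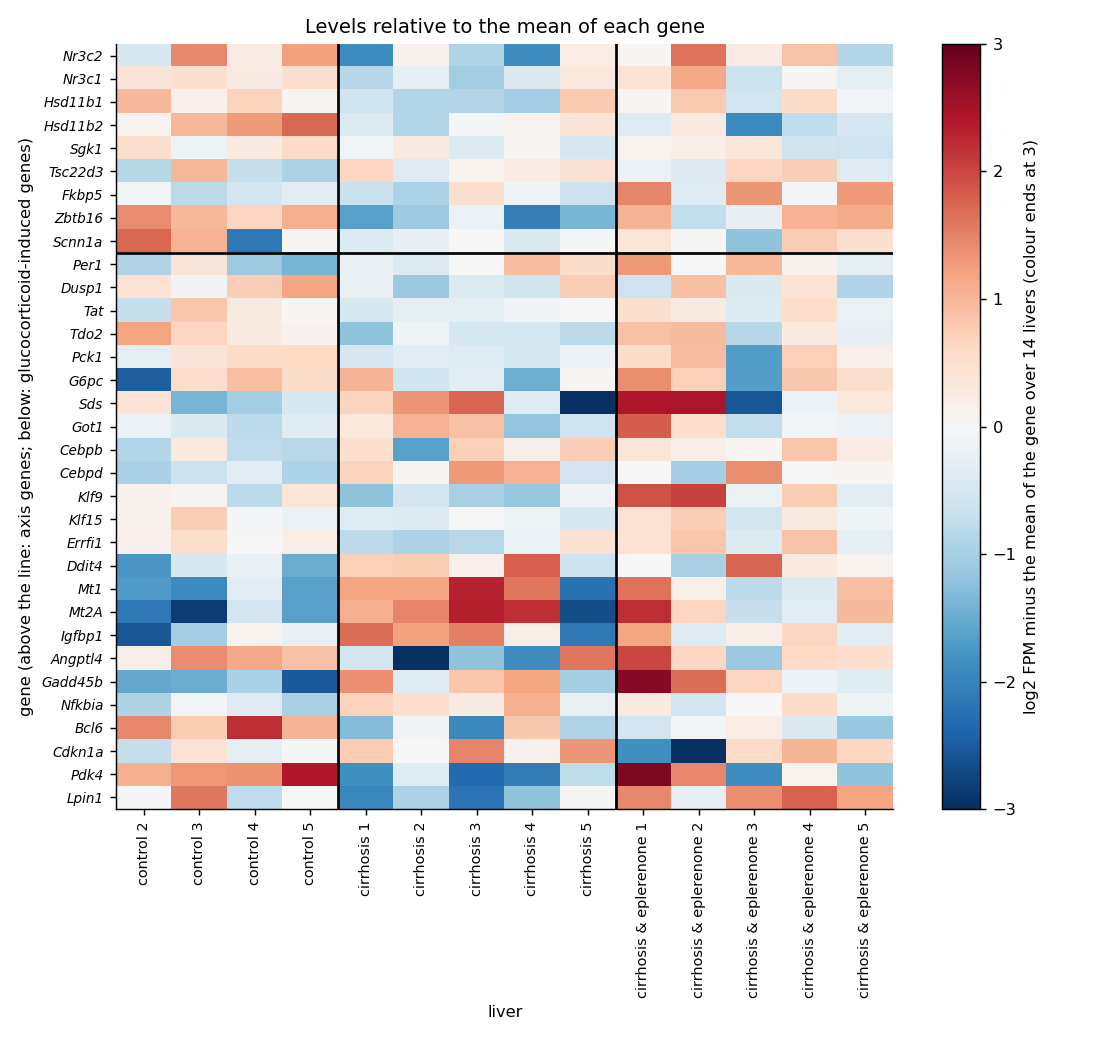
The 9 axis genes (above the line) and 24 glucocorticoid-induced genes (below) in each of 14 livers. Colour is log2 FPM (prior count 2) minus the mean of the gene over all livers, and the scale ends at 3 in either direction. Zbtb16 is low in all 5 cirrhosis livers, and Fkbp5 is high in cirrhosis & eplerenone replicates 1, 3 and 5.

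Of 19 genes that respond to MR in epithelia and fibrosis, 16 were tested, of which 9 rose and 1 fell in cirrhosis against control (median log2FC 2.31). The lipocalin Lcn2 rose by 6.35, with 0.636 to 2.05 FPM in control and 11.8 to 210 FPM in cirrhosis. The matricellular protein Ccn2 (4.63), endothelin Edn1 (4.31) and the chemokine Ccl2 (3.74) also rose. In cirrhosis & eplerenone against control 3 rose, among them Lcn2 (4.60) and Ccn2 (3.44). Between the CCl4 groups 0 were DEG, 4 had an unadjusted edgeR p below 0.05, DESeq2 called 0, and 11 of 16 were lower under eplerenone (median -0.51). Myofibroblast and cholangiocyte markers rose in cirrhosis for 4 of 6 and 5 of 5, with Acta2 in both this list and the myofibroblast list, and their part in the result was not tested.

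Of 16 genes of corticosteroid transport, clearance and synthesis, 12 were in the table and 9 were tested. In cirrhosis 3 fell and 0 rose (median log2FC -0.54). Serpina6, the corticosteroid binding globulin that carries corticosterone in blood, had 644 to 779 FPM in control, 216 to 430 FPM in cirrhosis and 219 to 429 FPM in cirrhosis & eplerenone. Both CCl4 groups lay below all controls, with a log2FC of -1.04 (edgeR FDR 0.0081) and -1.19 (edgeR FDR 0.0104). Srd5a1, a steroid ring reductase, likewise fell in both, with a log2FC of -2.37 and -2.42 (edgeR FDR 0.0037 and 0.0087). Akr1c14, which acts on the reduced steroid, fell in cirrhosis (-1.02, edgeR FDR 0.0110) and had -0.50 in cirrhosis & eplerenone (edgeR FDR 0.261). Akr1d1 (-0.54 in cirrhosis) was not called. Between the CCl4 groups 0 were DEG, 2 had an unadjusted edgeR p below 0.05 and DESeq2 called 0. Of the 6 hepatocyte markers Hnf4a fell and the other 5 were not called (median log2FC -0.62), and their part in the result was not tested.

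**Figure D5:**
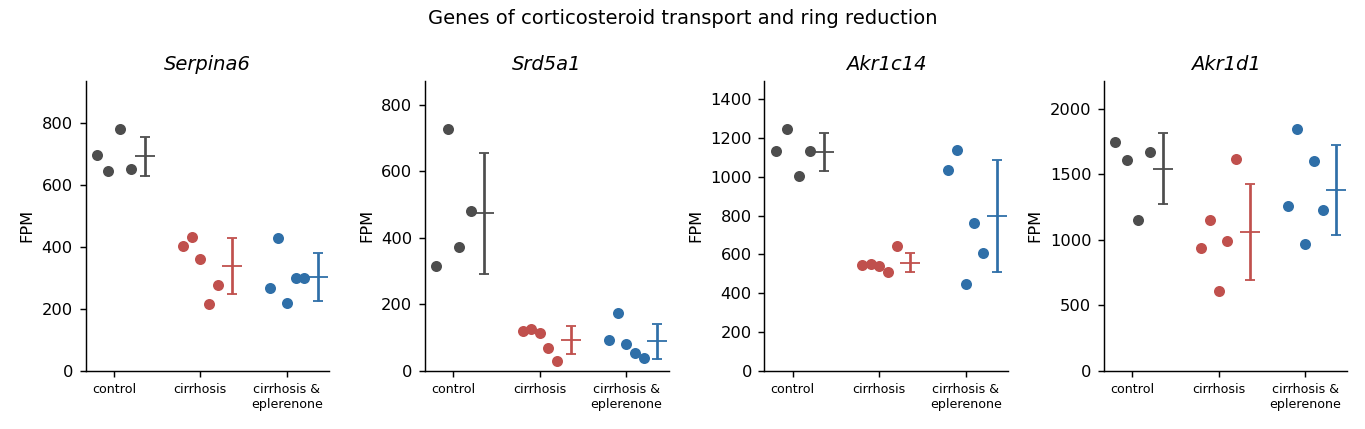
Serpina6, Srd5a1, Akr1c14 and Akr1d1 in each liver. The y axes are FPM from 0, points are rats and the bar beside each group is the mean ± SD (n = 4, 5 and 5). Serpina6 and Srd5a1 lie below all controls in both CCl4 groups, and the 2 CCl4 groups overlap for all 4 genes.

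Of 16 receptor chaperones and coregulators, 3 fell in cirrhosis and 0 rose (median log2FC -0.27). These were the acetyltransferase Ep300 (-2.22), the corepressor Ncor1 (-0.64) and Nrip1 (-0.87), which represses or assists several nuclear receptors. Ep300 was low, with 0.855 to 1.75 FPM in control. In cirrhosis it had 0 to 0.714 FPM from 26 reads in all, close to the limit of detection. Nrip1 also fell in cirrhosis & eplerenone (-1.14, edgeR FDR 0.0102). The receptor-folding chaperones Hsp90ab1 (0.16) and Hspa8 (-0.12) were not called. Of 4 other steroid receptors 1 was tested, Esr1, with 23.3 ± 13.5 FPM in control and 6.33 ± 7.73 FPM in cirrhosis, which was not called (log2FC -1.88, edgeR FDR 0.0611). Of 10 clock genes 0 were DEG in the 3 comparisons. The median clock gene had 1.12 in cirrhosis & eplerenone against control, with 7 of 10 at an unadjusted edgeR p below 0.05 (20.5% of all genes) and 2 called by DESeq2 alone (10.6% of all genes). Dbp, a clock output gene, had 2.35 to 16.8 FPM in control, 182 FPM in cirrhosis replicate 4 and 187 and 257 FPM in cirrhosis & eplerenone replicates 1 and 2. The time of day at which the livers were taken is not given in the sources used here.

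Among the other marker lists, 2 of 4 tested lymphocyte markers rose in cirrhosis, 1 of 4 endothelial and 1 of 5 macrophage markers fell, and 0 were called between the CCl4 groups. Of the kidney tubule markers 1 of 4 and of the adrenal cortex markers 2 of 3 in the table passed the filter, and neither list had a call. The summed adrenal level was at most 2.61 FPM in any liver.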

How the data were processed

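Poly(A) RNA was sequenced with paired reads of 150 bp. The authors used HISAT2 2.1.0 on rn6 and featureCounts 2.0.0 over exons (Ensembl archive 101, BiomaRt 2.44.4). A multi-mapping read counted at every place it hit, which can add reads to genes with near copies, and the use of strand is not given in the sources used here. The values are raw counts per gene, which the authors deposited with no normalization. Control replicate 1 was not analysed here, and the authors left out 1 control after a principal component analysis.

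Counts were filtered (filterByExpr, smallest count 10), scaled by TMM and fitted over all 3 groups in 1 model with edgeR 4.0.16 (quasi-likelihood) and with DESeq2 1.42.0 in R 4.3.3. Benjamini-Hochberg adjustment covered 14417 genes, and DEG had an FDR below 0.05 in both. Log2 FPM had a prior count of 2. The fits were checked on simulated counts in which 200 genes changed. The members, lists and tests were chosen with earlier results of these data known. All members are named. From each list up to 4 called genes with the largest log2FC and up to 2 uncalled genes of the highest level may be named, and 3 nearest genes per member. Some genes that this rule includes are not reported here. Alternatives were other scalings, filters, tests and samples, leaving out each rat, the label number as a term and the replicate number as a block. Ctgf was matched as Ccn2 and Cyp11b2 as Cyp11b3 through RefSeq synonyms (Cyp11b3 is also the symbol of another RefSeq gene, and the row was too low to be tested), and 4 of 9 members had a RefSeq promoter. On GRCr8, RefSeq places 3 other genes over Nr3c2 and 1 each over Fkbp5 and Zbtb16, whose reads may not be told apart.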

Additional observations from a re-analysis of the deposited data

Results flagged for a closer look

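Among 27 groups examined (9 genes in 3 groups), 2 held a rat far from the others of its group by Dixon's criterion, which chance alone gives in about 1 of 20 groups. Hsd11b1 had 842 FPM in cirrhosis replicate 5, where the other 4 rats had 239 to 325 FPM. Tsc22d3 had 170 FPM in control replicate 3, where the other 3 rats had 44.5 to 53.4 FPM.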

How the results depend on the processing

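Depth limited Nr3c2 most, which was not tested where the filter was stricter, within a label number, between 2 groups alone (cirrhosis against either other group) or in 2 of 14 fits that left out 1 rat. In cirrhosis against control 1 of the 9 genes was DEG; DESeq2 alone called 2, a fit of only the 2 groups compared 3, and the fit without the 2 libraries that stood apart 4 (1 to 4 with 1 rat left out). For cirrhosis & eplerenone against control the count of 1 became 2 with DESeq2 alone and with total counts as library size. It was 0 with every gene of at least 1 count, with at least 10 counts in every sample (where Hsd11b2 was not tested), with only the 2 groups and without the 2 libraries (0 to 2 with 1 rat left out). Between the CCl4 groups 0 became 1 with DESeq2 alone and 3 without the 2 libraries, and stayed 0 with any 1 rat left out. Genes of the 6 lists numbered 26 DEG in cirrhosis against control (13 to 37 with 1 rat left out). The 8 in cirrhosis & eplerenone against control became 16 with DESeq2 alone (3 to 12 with 1 rat left out), and the 0 between the CCl4 groups became 2 with DESeq2 alone and 17 without the 2 libraries (0 to 1). The cause was not tested. Over all genes, the share of DEG in cirrhosis against control was 20.1% in the main fit, 27.8% with DESeq2 alone and 34.1% without the 2 libraries. It was 5.2%, 10.6% and 4.86% in cirrhosis & eplerenone against control, and 0.0139%, 0.513% and 9.15% between the CCl4 groups. For the other settings, here and below, that share is not given. Their counts therefore do not show a change particular to these genes.

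The replicate numbers were taken as names of rats, and no pairing was used. Same-numbered rats deviated together with correlations of -0.33 to 0.19. Rats of unlike number were not compared in this way, so this range cannot decide whether the numbers carry a pairing. With the number as a replicate block, 0 of the 9 genes and 5 list genes were DEG in cirrhosis & eplerenone against control, the log2FC of Fkbp5 in cirrhosis against control turned to -0.042 and that of Nr3c2 in cirrhosis & eplerenone against control to 0.010.

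Small log2FC also changed sign elsewhere. Total counts, which raised the median of all genes by 0.28 and 0.32 against control, gave 0.035 for Nr3c2 and 0.10 for Nr3c1 in cirrhosis & eplerenone against control, below that shift, and without the 2 libraries Nr3c1 had 0.00080 there. Between the CCl4 groups, rats labelled 20, which include the 2 libraries, gave -0.24 for Nr3c1, -0.089 for Hsd11b1 and 0.067 for Tsc22d3. Rats labelled 15 gave 0.43 for Hsd11b2, and Sgk1 had -0.19 without the 2 libraries. With 1 rat left out the log2FC ran from -0.16 to 0.25 for Fkbp5 in cirrhosis against control, from -0.54 to 0.13 for Nr3c2 and -0.88 to 0.079 for Scnn1a in cirrhosis & eplerenone against control, and from -0.11 to 0.16 for Sgk1 and -0.27 to 0.030 for Tsc22d3 between the CCl4 groups. Leaving aside the fits without 1 rat, 260 values for single genes kept direction and side of the threshold, 12 gained and 4 lost the call, and 10 changed sign. Over the alternatives fitted with edgeR its FDR between the CCl4 groups ranged from 0.0353 to 1.00 for Nr3c1, 0.0200 to 1.00 for Hsd11b1 and 0.0306 to 1.00 for Zbtb16. In cirrhosis against control it ranged from 0.0108 to 0.218 for Nr3c1, 0.0016 to 0.267 for Hsd11b1, 0.0173 to 0.179 for Hsd11b2 and 0.0022 to 0.0207 for Zbtb16, and in cirrhosis & eplerenone against control from 0.0166 to 0.155 for Hsd11b2 and 0.0146 to 0.202 for Fkbp5.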
